A study of Homo sapiens with 6 samples.

Results

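Many small nucleolar RNAs (snoRNAs), the guides that direct chemical modification and cleavage of ribosomal RNA, are cut out of the introns of longer transcripts. Some of these host genes encode ribosomal proteins or nucleolar proteins. Others, most of them named small nucleolar RNA host genes (SNHG), encode no protein, and their spliced RNAs are commonly degraded by nonsense-mediated decay. Several host genes begin with a 5′ terminal oligopyrimidine (TOP) tract, a cytosine at the cap followed by a run of pyrimidines, as the ribosomal protein genes do. Other long noncoding RNAs (lncRNAs) work as RNAs themselves, among them MALAT1, which sits in nuclear speckles, and NEAT1, the scaffold of the nuclear bodies called paraspeckles.

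The genes described here are the rows of the count table named SNHG followed by a number, together with 14 lncRNAs and host genes named one by one. The rule found 33 of the 36517 genes in the table, namely 21 SNHG genes and 12 of the genes named one by one. MEG3 and CYTOR had no row under those names. LINC00152, a RefSeq synonym of CYTOR, had a row that was not counted among the 33, with 4.17 ± 0.56 CPM in control and 3.74 ± 0.141 CPM in shtRF cells (SD, n = 3), and its log2 change of -0.16 did not pass the threshold (edgeR adjusted p = 0.384). RNA was sequenced from MDA-MB-453 cells, an established human breast cancer line, at day 3. Cells of both arms carried a lentivirus. The control cells (n = 3) had the negative-control hairpin shNC, and the shtRF cells (n = 3) had a hairpin against tRF-1-Ser, a small RNA cut from the 3′ trailer of a pre-tRNA for serine. The study's methods call the replicates biological. Whether the libraries of an arm came from separate transductions is not given in the sources used here, so p-values measure the spread between these libraries only.

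Libraries held 63541413 to 78917459 counts. The luminal and epithelial genes FOXA1, ERBB2, KRT8, KRT18 and EPCAM were present, and 6 of 7 markers of stromal, immune and endothelial cells (COL1A2, PDGFRB, PTPRC, CD3E, PECAM1 and CDH5) reached at most 0.291 CPM (counts scaled to library size) in any library. COL1A1, the seventh, stood at 32.2 ± 2.87 CPM in control and 20.9 ± 0.329 CPM in shtRF cells (SD, n = 3). MYC, a transcription factor that drives ribosome production, fell from 21.0 ± 0.667 to 7.55 ± 0.325 CPM. MBNL1, the splicing factor on which the study centres, rose with a log2 change of 0.25 ± 0.06 (SE, edgeR adjusted p = 0.00205), a call that limma on log2(RPKM + 1) and log2(RPKM + 0.1) did not make (adjusted p = 0.0582 and 0.053), where RPKM is the count scaled to exonic length and library total. The paper reports no change of MBNL1 mRNA (by qPCR) or protein upon knockdown or overexpression of tRF-1-Ser. The part of MYC and MBNL1 in the results below was not tested. In bulk RNA, fewer cells of a type and less RNA per cell cannot be told apart.

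The start sites of host genes are shown first, because the TOP tract is the sequence feature that host genes are known to share with ribosomal protein genes. RefSeq promoters (GRCh38.p14, 250 bases before the start site and 50 bases from it) were held for 28 of the 33 genes. A C at the start site followed by at least 4 C or T bases, read on the gene's strand only, was found in 6 of these genes and in 4.07% of the 35116 promoters of the reference. The windows below run 5′ to 3′ from 10 bases before the start site, and capitals mark the pyrimidine run that opens the transcript. They come from chr5:139274091-139274140 (plus strand) for SNHG4, chr6:85678694-85678743 (minus strand) for SNHG5, chr16:2155319-2155368 (minus strand) for SNHG19, chr20:49278632-49278681 (plus strand) for ZFAS1 and chr1:28581834-28581883 (minus strand) for SNHG12.
SNHG4: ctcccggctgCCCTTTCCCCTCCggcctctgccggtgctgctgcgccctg
SNHG5: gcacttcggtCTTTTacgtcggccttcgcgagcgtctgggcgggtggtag
SNHG19: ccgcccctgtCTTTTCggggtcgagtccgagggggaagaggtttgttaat
ZFAS1: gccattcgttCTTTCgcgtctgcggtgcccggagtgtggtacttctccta
SNHG12: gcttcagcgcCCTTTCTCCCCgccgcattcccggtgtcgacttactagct

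The sixth gene with such a run was SNHG18, which was too low to test. Of the 5 tested genes with the run, 4 were lower in shtRF cells (SNHG4, SNHG5, SNHG19 and ZFAS1), and SNHG12 did not pass the threshold. SNHG1, SNHG8, SNHG10, SNHG17, SNHG22 and TUG1 had a promoter without the run and were lower too. HCG18, MALAT1, DLEU2, SNHG16, NORAD and SNHG11 also lacked the run and were higher. The remaining tested genes with a promoter and without the run did not pass the threshold. Among all genes tested 18.9% were lower, and whether the run goes with a fall was not tested. The tract depends on the exact start, and the RefSeq start lay within 10 bases of the start in the count table for 14 of the genes. It lay 464 bases away for ZFAS1 and 1110 bases away for SNHG12. Among 42 RefSeq promoters of protein-coding snoRNA hosts, 42.9% held the run.

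Of the 33 genes, 31 passed the filter on low counts and were tested with edgeR's quasi-likelihood test over all 19628 genes that passed. In shtRF cells 7 were higher and 11 lower at an adjusted p under 0.05, and 13 did not pass. The shares were 22.6% higher and 35.5% lower, against 20.6% higher and 18.9% lower among all genes tested. By more than 1.5-fold, 2 were higher (6.22% of all genes) and 5 lower (6.83% of all genes). The control and shtRF libraries did not overlap for 20 of the 31, where 48.7% of all genes tested showed such separation. The median log2 fold change was -0.17, beside -0.0025 over all genes tested. SNHG9 had 4 to 23 counts per library and SNHG18 had 1 count in all, and neither was tested.

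**Figure D1:**
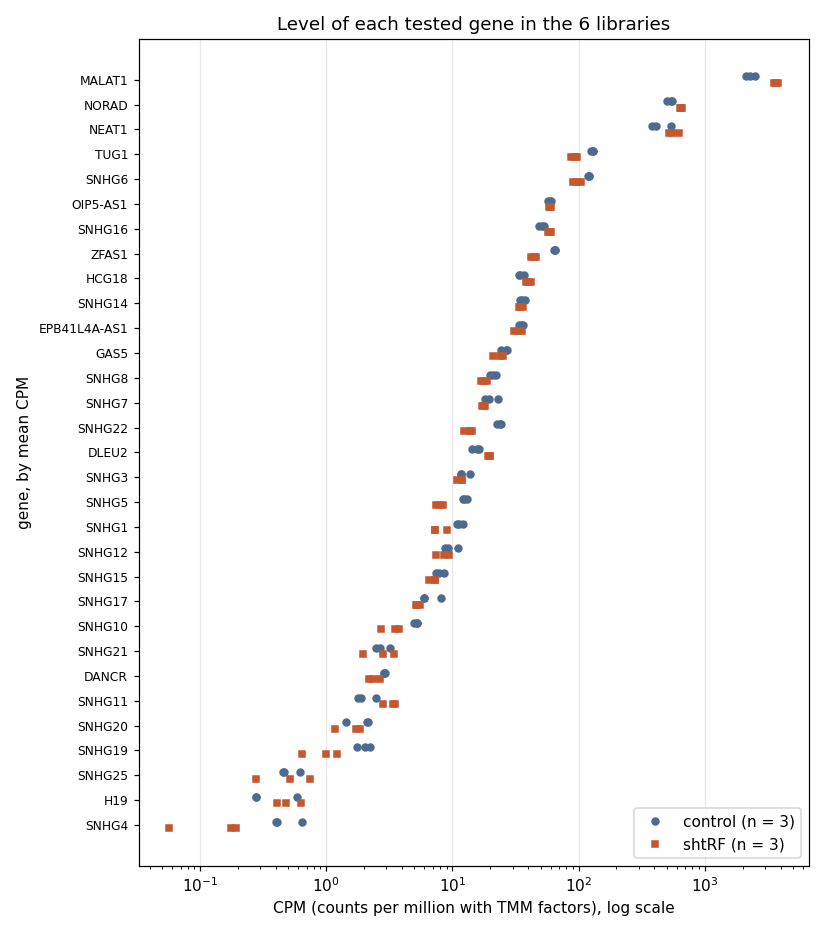
Level of the 31 tested genes in each of the 6 libraries, in CPM on a log scale, with control libraries as circles and shtRF libraries as squares and genes ordered by mean CPM. SNHG4, H19 and SNHG25 lie below 1 CPM in every library, and MALAT1 lies highest, at 2112 to 3817 CPM.

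The SNHG genes and the genes named one by one were called in different proportions, and the difference between them was not tested. Of 19 SNHG genes tested, 2 were higher and 9 lower (10.5% and 47.4%), with a median log2 change of -0.24. Of the 12 genes named one by one, 5 were higher and 2 lower (41.7% and 16.7%), with a median of 0.10. The genes were also split by whether GENCODE 29 places a snoRNA or a small Cajal body RNA inside the gene. The 22 tested genes with such an RNA had 2 higher and 10 lower (9.09% and 45.5%), and a median of -0.25. GAS5, a snoRNA host described below, had none placed inside it by this rule and was not among the 22. Another 939 lncRNA genes were tested and had 144 higher and 114 lower (15.3% and 12.1%), and a median of 0.0033. The shares of all genes tested were 20.6% higher and 18.9% lower.

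**Figure D2:**
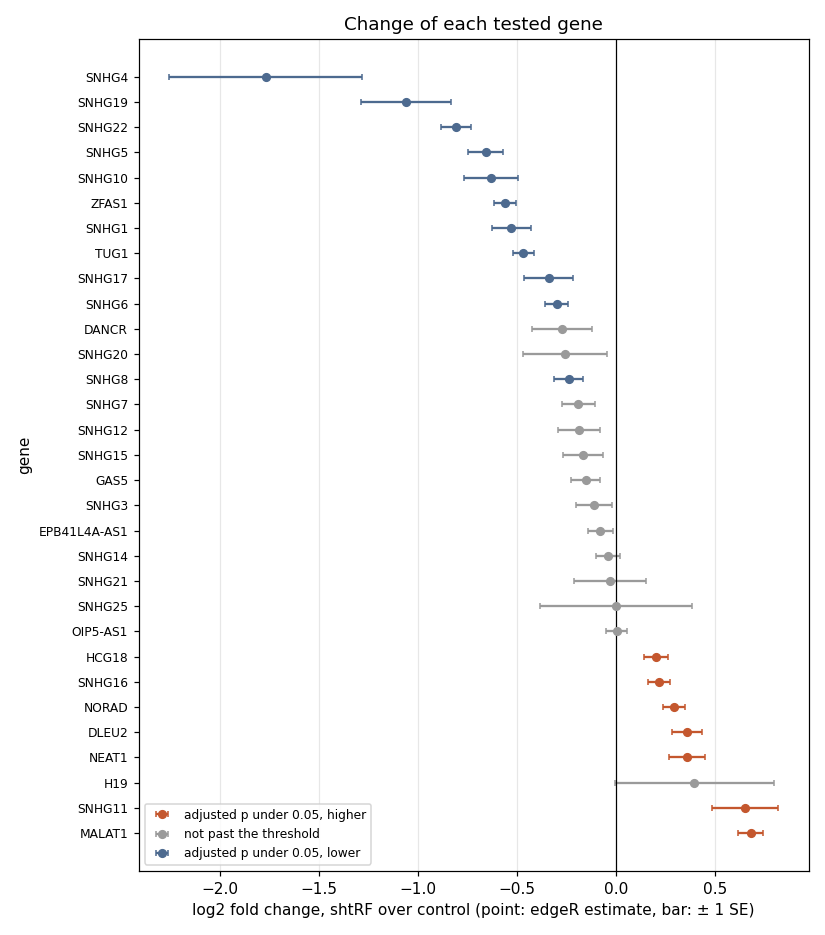
Log2 fold change of shtRF over control for the 31 tested genes, as the edgeR estimate with a bar of 1 SE on each side, coloured by whether the adjusted p was under 0.05. SNHG4 lies lowest at -1.77 and MALAT1 highest at 0.68.

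The SNHG genes lower by more than 1.5-fold were SNHG4, SNHG19, SNHG22, SNHG5 and SNHG10. SNHG22, an antisense host gene at chr18:49814023-49851059, had 23.8, 24.2 and 22.7 CPM in control and 12.3, 14.4 and 13.7 CPM in shtRF libraries. Every shtRF library lay below every control library. Its log2 fold change was -0.81 ± 0.08 (SE, edgeR adjusted p = 1.94e-08), the lowest adjusted p among the SNHG genes. SNHG22 shares 8.83% of its exonic bases with MYO5B on the other strand, a myosin motor gene that was also lower (log2 fold change -0.41, edgeR adjusted p = 1.21e-06).

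SNHG5, at chr6:85660950-85678736, hosts a C/D box snoRNA, the class that guides ribose methylation. It had 13.1, 12.4 and 12.1 CPM in control and 8.47, 7.82 and 7.47 CPM in shtRF libraries. The groups did not overlap, and the log2 fold change was -0.66 ± 0.09 (SE, edgeR adjusted p = 3.22e-06). Only 2.51% of its exonic bases are shared with another gene, so this fall rests almost wholly on sequence of its own.

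SNHG19, a short host gene at chr16:2154797-2155358, shares no exonic base with another gene. It had 1.77, 2.01 and 2.24 CPM in control and 1.22, 1.005 and 0.645 CPM in shtRF libraries. The groups were separate, with a log2 change of -1.06 ± 0.23 (SE, edgeR adjusted p = 6.98e-04).

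SNHG10, at chr14:95532297-95534872, had 5.27, 5.28 and 4.92 CPM in control and 2.71, 3.74 and 3.53 CPM in shtRF libraries. All shtRF libraries were lower, with a log2 change of -0.63 ± 0.14 (SE, edgeR adjusted p = 6.95e-04). It shares 20.1% of its exonic bases with GLRX5, a mitochondrial iron-sulphur protein gene on the other strand, whose own log2 fold change was -0.20 (edgeR adjusted p = 0.0475).

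SNHG4, at chr5:139274102-139283244, had the largest fitted fall and the fewest reads of the genes called. Its raw counts were 42, 31 and 32 in control and 4, 12 and 12 in shtRF libraries. The groups did not overlap, and the log2 fold change was -1.77 ± 0.49 (SE, edgeR adjusted p = 0.00581). The size depends on the scale, and limma on log2(RPKM + 1) gave -0.23. SNHG4 shares 28.8% of its exonic bases with MATR3 on the same strand, a nuclear matrix protein gene with a log2 change of -0.23.

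Smaller falls were seen in 4 further SNHG genes. SNHG1, which hosts several C/D box snoRNAs, went from 11.4 ± 0.616 to 7.89 ± 1.05 CPM (SD, n = 3), a log2 change of -0.53 ± 0.10 (edgeR adjusted p = 1.95e-04). SNHG6, among the more abundant hosts, went from 120 ± 1.78 to 97.4 ± 7.18 CPM, a log2 change of -0.30 ± 0.06 (edgeR adjusted p = 1.99e-04). It shares 29.3% of its exonic bases with MCMDC2 on the other strand (log2 fold change -0.61, edgeR adjusted p = 0.00149). SNHG8 had a log2 change of -0.24 ± 0.07 (edgeR adjusted p = 0.0121), and the call was lost without control replicate 2 (edgeR adjusted p = 0.0518) or shtRF replicate 2 (0.0758). SNHG17 had a log2 change of -0.34 ± 0.12 (edgeR adjusted p = 0.0333). That call was lost without control replicate 3, where the log2 fold change was -0.17 (edgeR adjusted p = 0.281), and without shtRF replicate 1, 2 or 3 (adjusted p = 0.0846, 0.0579 and 0.087). limma on log2(RPKM + 1) and on log2(RPKM + 0.1) did not make it either (adjusted p = 0.0849 and 0.0817).

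SNHG16 and SNHG11 rose. SNHG16, at chr17:76557766-76565348, had 51.3, 53.3 and 48.3 CPM in control and 59.9, 60.5 and 57.2 CPM in shtRF libraries, without overlap. Its log2 fold change was 0.22 ± 0.06 (SE, edgeR adjusted p = 0.00401), and limma on log2(RPKM + 1) and on log2(RPKM + 0.1) did not call it (adjusted p = 0.0637 and 0.062). SNHG11, at chr20:38446578-38450921, had 1.80, 2.50 and 1.88 CPM in control and 3.52, 2.81 and 3.39 CPM in shtRF libraries. The groups were again separate, with a log2 change of 0.65 ± 0.17 (SE, edgeR adjusted p = 0.00353). Without control replicate 1 or 3 or shtRF replicate 1 it stayed called, at log2 fold changes of 0.56, 0.58 and 0.58, which are under 1.5-fold. On log2(RPKM + 1) its log2 fold change was 0.29.

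The other 8 tested SNHG genes did not pass the threshold. Their log2 fold changes ran from -0.26 (SNHG20) to -0.00 (SNHG25), with SNHG7, SNHG12, SNHG15, SNHG3, SNHG14 and SNHG21 between. SNHG7 was nearest to the threshold, at -0.19 ± 0.08 (edgeR adjusted p = 0.0705), and its groups did not overlap. It was called without control replicate 3 (edgeR adjusted p = 0.0113), with upper quartile scaling (0.0309) and with a filter of 10 counts in each library (0.0485). SNHG14, the long host of the imprinted C/D box snoRNA clusters on chromosome 15, had 35.9 ± 1.75 CPM in control and 34.8 ± 1.38 CPM in shtRF cells (SD, n = 3). SNHG25 had an SE of 0.38 at a level of 0.511 CPM, too low to tell a change of moderate size.

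ZFAS1, GAS5, DANCR and EPB41L4A-AS1 are snoRNA hosts that were named one by one. ZFAS1, at chr20:49278178-49295738, carries C/D box snoRNAs in its introns and lies antisense to the start of ZNFX1. It had 64.0, 64.7 and 65.4 CPM in control and 45.7, 44.1 and 42.0 CPM in shtRF libraries. The groups were far apart beside their spread, with a log2 change of -0.56 ± 0.06 (SE, edgeR adjusted p = 3.83e-08). On the other strand it shares 11.1% of its exonic bases with ZNFX1, which moved the opposite way (log2 fold change 0.25, edgeR adjusted p = 0.000746).

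GAS5, a TOP host gene named for its accumulation in growth-arrested cells, lies at chr1:173863900-173868882. It had 27.1, 24.2 and 26.7 CPM in control and 25.0, 20.9 and 24.1 CPM in shtRF libraries. These overlapped, and the log2 change of -0.15 ± 0.07 did not pass the threshold (edgeR adjusted p = 0.109). Without control replicate 2 it was -0.21 (edgeR adjusted p = 0.0482). The RefSeq start of GAS5 lay 163 bases from the start in the count table, and no run as defined above stood at that base.

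DANCR, at chr4:52712404-52720351, an lncRNA named for holding back differentiation, had 2.87, 2.89 and 2.94 CPM in control and 2.65, 2.20 and 2.35 CPM in shtRF libraries. The shtRF libraries were all lower, but the log2 change of -0.27 ± 0.15 did not pass (edgeR adjusted p = 0.164). EPB41L4A-AS1, at chr5:112160526-112164276, had 36.2, 35.2 and 33.9 CPM in control and 33.1, 35.4 and 31.0 CPM in shtRF libraries. These overlapped, with a log2 change of -0.08 ± 0.06 (edgeR adjusted p = 0.341). It shares 49.6% of its exonic bases with EPB41L4A on the other strand, which was higher (log2 fold change 0.20, edgeR adjusted p = 0.00334).

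MALAT1, at chr11:65497762-65506516, was the most abundant of the genes per length, at 268 ± 24.0 RPKM in control cells (SD, n = 3). It had 2513, 2280 and 2112 CPM in control and 3569, 3673 and 3817 CPM in shtRF libraries. The groups did not overlap, and MALAT1 took 0.214% to 0.256% of the counts in control and 0.353% to 0.372% in shtRF libraries. The log2 fold change was 0.68 ± 0.06 (SE, edgeR adjusted p = 1.54e-08), a 1.60-fold rise. AP000769.1, annotated wholly inside MALAT1 on the other strand and covering 18.1% of its exonic bases, rose too (log2 fold change 0.43, edgeR adjusted p = 5.15e-06).

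NEAT1, the neighbour of MALAT1 at chr11:65422774-65445540, had 541, 411 and 379 CPM in control and 629, 523 and 554 CPM in shtRF libraries. The groups overlapped, because control replicate 1 lay above shtRF replicate 2. edgeR gave a log2 change of 0.36 ± 0.09 (SE, adjusted p = 0.00345). The call was not made by DESeq2 (adjusted p = 0.103) or by limma on log2(RPKM + 1) and log2(RPKM + 0.1) (adjusted p = 0.132 and 0.122), so the rise of NEAT1 depended on the test.

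NORAD, at chr20:36045622-36050960, is a mainly cytoplasmic lncRNA that binds Pumilio proteins. It had 547, 541 and 503 CPM in control and 633, 647 and 666 CPM in shtRF libraries. The groups did not overlap, with a log2 change of 0.29 ± 0.05 (SE, edgeR adjusted p = 1.67e-04). Per length it was second to MALAT1, at 101 ± 5.01 RPKM in control cells, close to SNHG6 at 98.0 ± 2.09 RPKM.

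TUG1, at chr22:30970677-30979395, moved the other way. It had 129, 130 and 126 CPM in control and 97.4, 87.2 and 93.6 CPM in shtRF libraries. The groups were well apart, with a log2 change of -0.47 ± 0.05 (SE, edgeR adjusted p = 4.05e-07). RP3-430N8.11, annotated wholly inside TUG1 on the other strand over 8.04% of its exonic bases, had a log2 change of -0.58 (edgeR adjusted p = 0.00452). OIP5-AS1, at chr15:41283990-41309737, had 57.3, 59.7 and 60.5 CPM in control and 60.1, 59.9 and 57.8 CPM in shtRF libraries. The libraries intermingled, and its log2 fold change was 0.00 ± 0.05, of either sign across the scalings tried.

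DLEU2, at chr13:49982552-50125720, is the host transcript of the microRNAs miR-15a and miR-16-1. It had 14.3, 15.6 and 16.2 CPM in control and 20.0, 19.3 and 19.7 CPM in shtRF libraries. The groups did not overlap, with a log2 change of 0.36 ± 0.07 (SE, edgeR adjusted p = 5.29e-04). HCG18, at chr6:30287397-30327150, had 34.0, 36.7 and 34.1 CPM in control and 38.5, 42.0 and 40.2 CPM in shtRF libraries. These were separate too, but the log2 fold change was small, at 0.20 ± 0.06 (edgeR adjusted p = 0.0103), and was not called without shtRF replicate 2 (adjusted p = 0.0683) or by limma on log2(RPKM + 1) and log2(RPKM + 0.1) (adjusted p = 0.183 and 0.175). H19, an imprinted lncRNA at chr11:1995163-2001470, had 0.277, 0.278 and 0.589 CPM in control and 0.484, 0.408 and 0.629 CPM in shtRF libraries. These overlapped at under 1 CPM, and a log2 change of 0.39 ± 0.40 was not distinguishable from 0 at this depth (edgeR adjusted p = 0.476).

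The E-box CACGTG, the sequence to which MYC and related factors bind, was searched in the promoters, where one strand stands for both because it is palindromic. It was found in 5 of the 28 genes with a promoter and in 7.26% of all promoters in the reference. These genes moved in both directions, since NORAD and DLEU2 were higher, TUG1 was lower, and SNHG7 and OIP5-AS1 did not pass. The promoters of NORAD (chr20:36050911-36051210, minus strand) and TUG1 (chr22:30969015-30969314, plus strand) are given as the most abundant gene of each direction, with the E-box in capitals. The RefSeq start of TUG1 lay 1412 bases from its start in the count table. A match describes these letters only.
NORAD: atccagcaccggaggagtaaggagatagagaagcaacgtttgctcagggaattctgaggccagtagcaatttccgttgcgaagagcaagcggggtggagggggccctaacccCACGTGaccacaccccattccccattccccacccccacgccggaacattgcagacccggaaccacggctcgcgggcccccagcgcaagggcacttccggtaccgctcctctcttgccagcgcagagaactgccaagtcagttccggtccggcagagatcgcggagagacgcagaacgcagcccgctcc
TUG1: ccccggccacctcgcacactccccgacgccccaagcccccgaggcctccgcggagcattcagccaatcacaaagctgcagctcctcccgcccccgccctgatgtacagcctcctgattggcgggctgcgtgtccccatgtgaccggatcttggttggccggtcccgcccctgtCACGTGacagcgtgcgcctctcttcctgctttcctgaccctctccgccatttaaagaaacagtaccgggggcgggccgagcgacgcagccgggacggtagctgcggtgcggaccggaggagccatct

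Most of the lower calls were in genes that share at least 10% of their exonic bases with other annotated genes. These partners include some annotated wholly inside the gene on its own strand, such as SNORD22 in SNHG1 and TUG1_3 in TUG1. Of the 31 tested genes, 18 shared at least 10% of their exonic bases in this way. Of these, 2 were higher and 8 lower, or 11.1% and 44.4%, with a median log2 change of -0.25. The other 13 had 5 higher and 3 lower (SNHG5, SNHG17 and SNHG19), or 38.5% and 23.1%, and a median of 0.0029. Among all genes tested, 20.6% were higher and 18.9% lower. The difference between these sets was not tested. The libraries were stranded, but whether counting used the strand is not given in the sources used here, so reads of a gene and of its antisense partner cannot be told apart.

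**Figure D3:**
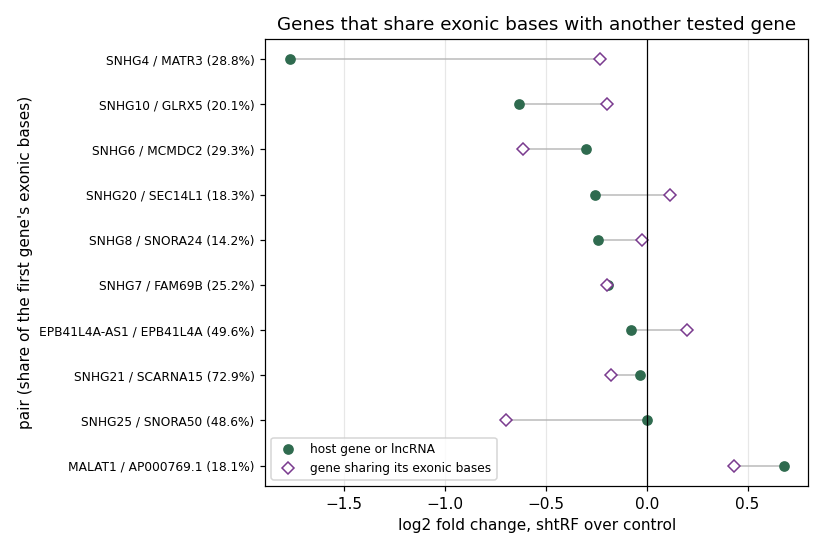
Log2 fold change of shtRF over control for 10 of the genes that share at least 10% of their exonic bases with 1 other tested gene (filled circles, ZFAS1 not shown) and for the gene with the largest shared length (open diamonds), with the share of bases in brackets. SNHG4 lay far below MATR3, and SNHG6 lay above MCMDC2.

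Rows named as snoRNAs inside the host genes had few reads. The libraries came from an mRNA preparation, and whether these reads stem from snoRNAs or from host RNA was not tested. Of 60 rows named as a snoRNA or small Cajal body RNA inside one of the genes on its strand, 20 in 11 host genes were tested, at 1 to 253 counts per library. SNORD22, in SNHG1, was lower, with 83, 117 and 133 counts in control and 71, 54 and 52 in shtRF libraries (log2 fold change -0.77 ± 0.23, edgeR adjusted p = 0.00983). As annotated in the table, all of its 251 exonic bases lie within SNHG1 exons, so its reads cannot be told apart from those of its host. SNORD107, in SNHG14, had 35, 59 and 71 counts in control and 67, 90 and 81 in shtRF libraries (log2 fold change 0.68 ± 0.27, edgeR adjusted p = 0.0469). After scaling to CPM its groups did not overlap. It lies wholly within an SNHG14 exon as annotated in the table, so its reads cannot be told apart from those of its host either. The other 18 did not pass the threshold, where 18.9% of all genes tested were lower and 20.6% higher.

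Protein-coding genes that host snoRNAs, most of them ribosomal protein genes, fell more widely than the noncoding hosts in counts, without a test of the difference. Of 41 tested, 33 were lower, 3 higher and 21 lower by more than 1.5-fold, with a median log2 change of -0.61. These are 80.5% lower and 7.32% higher, beside 18.9% and 20.6% of all genes tested. By more than 1.5-fold, 6.83% of all genes tested were lower. RPS12, a protein of the small ribosomal subunit, went from 92.3 ± 2.76 to 44.9 ± 2.61 CPM, and RPL27A, of the large subunit, from 95.4 ± 7.52 to 46.5 ± 3.16 CPM (SD, n = 3), each with a log2 change of -1.04. NAP1L4, a histone chaperone, rose with a log2 change of 0.50 and TNPO2, a nuclear import receptor, with 0.24.

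Genes for the proteins that bind and assemble snoRNAs were also mostly lower. Of 18 tested, 10 were lower and 2 higher, or 55.6% and 11.1%, with a median log2 change of -0.27. The shares of all genes tested were 18.9% lower and 20.6% higher. RUVBL1, an ATPase of the assembly machinery, went from 158 ± 8.36 to 108 ± 0.627 CPM (log2 fold change -0.55, edgeR adjusted p = 3.1e-08). SNU13, a core protein of C/D box particles, had a log2 change of -0.44. ZNHIT6, an assembly factor of C/D box particles, rose from 105 ± 6.42 to 191 ± 7.84 CPM (log2 fold change 0.86, edgeR adjusted p = 6.5e-11), and RRP9, a protein of the U3 particle, had 0.22. DKC1, the pseudouridine synthase of H/ACA particles and itself a snoRNA host, did not pass (log2 fold change 0.03, edgeR adjusted p = 0.702). Without control replicate 1 or 2 or shtRF replicate 3, 1 gene of the list was higher.

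Genes of nonsense-mediated decay, the pathway that clears many spliced host RNAs, were called in both directions. Of 16 tested, 5 were higher and 2 lower, none by more than 1.5-fold, with a median log2 change of 0.12. These are 31.2% higher and 12.5% lower, beside 20.6% and 18.9% of all genes tested. UPF3A rose with a log2 change of 0.55 and SMG9 with 0.32, while the exon junction complex genes RBM8A and EIF4A3 fell by 0.41 and 0.31 on the log2 scale. Of 12 genes for paraspeckle proteins, which bind NEAT1, 3 were higher and 6 lower, or 25% and 50% beside the same shares of all genes, with a median of -0.13. DAZAP1 had a log2 change of -0.31 and NUDT21 of -0.27, while HNRNPH3 had 0.20 and SFPQ, needed for paraspeckles to form, had 0.18. Without control replicate 3, 8 decay factors were higher. Without shtRF replicate 3, 0 paraspeckle genes were higher and 3 lower, and without control replicate 1 or 2 or shtRF replicate 2, 1 was higher.

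**Figure D4:**
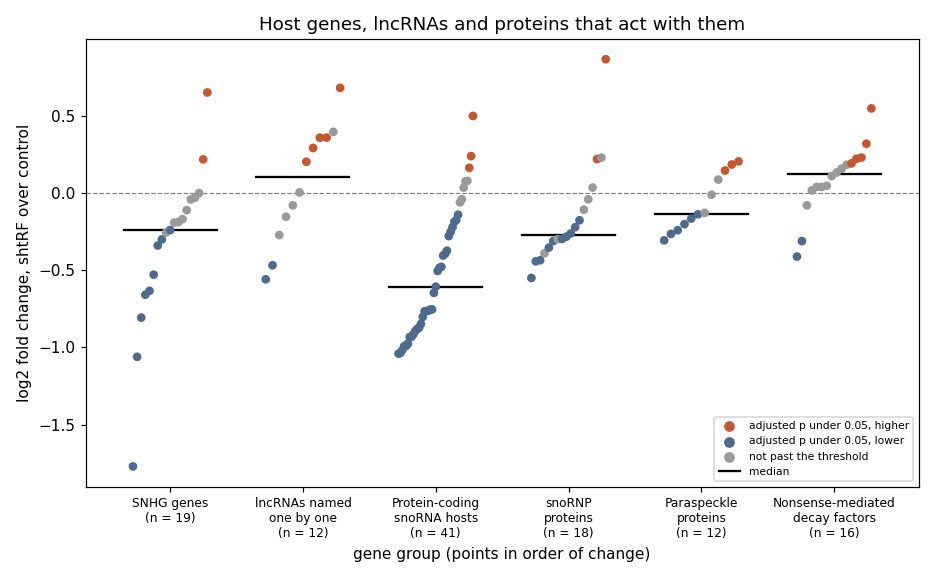
Log2 fold change of shtRF over control for each tested SNHG gene, each tested lncRNA or host named one by one, and the genes of 4 related lists, as points in order of change with the median as a black line. The protein-coding hosts have the lowest median, at -0.61, and the SNHG genes a median of -0.24.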

How the data were processed

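RNA of 6 libraries (3 control, 3 shtRF, grouped by sample title) was sequenced as read pairs after a stranded mRNA preparation, per the labels. The submitters' processing notes name Trimmomatic 0.36, featureCounts of Subread 1.5.1, edgeR 3.12.1 and GRCh38; the aligner is not given in the sources used here. The authors deposited raw read counts per gene with exon coordinates, and RPKM values, which were made from those counts: 100.0% of 29946 deposited RPKM values equalled count over exonic length and library total within a relative tolerance of 0.0001. RPKM values of all genes were therefore recomputed. Even counts made up 74.2% to 77.1% of counts of 1 to 4, as counting both mates of a pair would give.

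Genes were filtered with filterByExpr (minimum count 10), scaled by TMM (factors 0.961 to 1.03) and tested with edgeR 4.0.16 (R 4.3.3) quasi-likelihood, with group as the only term and Benjamini-Hochberg adjustment over 19628 genes. CPM are TMM-scaled counts, and SE is the estimate divided by the square root of F. Correlations between libraries were 0.997 to 0.998 within groups and 0.988 to 0.989 between groups. An exact permutation test of 3 against 3 cannot go below p = 0.1 and was not used.

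The genes and lists were chosen with earlier results of these data known. Per-library values were given for each gene named one by one in the rule and for each SNHG gene called and changed over 1.5-fold at 1 CPM or more. SNHG4, which is below 1 CPM, and SNHG16, SNHG1, SNHG6, SNHG8, SNHG17, SNHG7, SNHG14 and SNHG25 were added after their values were seen. List genes named are the 2 called with the largest rise and fall at 1 CPM or more; DKC1 was added. Alternatives were RLE and upper quartile scaling, other filters, DESeq2 1.42.0, limma-trend 3.58.1 on log2(RPKM + 1) and log2(RPKM + 0.1), halved counts, genes with under 10% exon overlap, each library left out and a replicate block. The fits were tested on simulated data. Some results are not reported here.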

Additional observations from a re-analysis of the deposited data

How the results depend on the processing

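Of 524 values of single genes under 16 alternatives, 486 stayed on their side of the threshold with their sign, 18 lost the call, 4 gained it and 16 changed sign. With limma-trend on log2(RPKM + 1) and on log2(RPKM + 0.1), 4 of the genes were higher on both scales, 1 was higher by over 1.5-fold on both, the decay factors had 2 and 3 higher, and the paraspeckle list had 1 higher on both. On log2(RPKM + 1), 3 were lower by over 1.5-fold. The median log2 fold change was -0.212 on log2(RPKM + 0.1) and -0.206 with upper quartile scaling, which left 1 paraspeckle gene higher. Among genes with under 10% exon overlap, where fewer genes are tested, 3 were lower, 1 was higher and 2 lower by over 1.5-fold, the median was -0.00665, 19 coding hosts were lower and 1 decay factor was lower.

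Leaving out each library in turn gave 1 to 2 genes higher by over 1.5-fold, a median of -0.218 to -0.134, 1 to 3 snoRNP genes higher, 4 to 8 decay factors higher (8 without control replicate 3), and 0 to 3 paraspeckle genes higher and 3 to 6 lower (0 and 3 without shtRF replicate 3). OIP5-AS1 changed sign at -0.000692 (RLE), -0.0333 (upper quartile), -0.00376 (at least 1 count), -0.0108 (at least 10 counts), -0.000727 (DESeq2), -0.0410 and -0.0488 (limma), -0.00665 (under 10% overlap), and -0.0254, -0.0162 and -0.00425 without control replicate 1, shtRF replicate 1 or shtRF replicate 2, in a range up to 0.0203. SNHG25 changed sign at 0.000808 with halved counts, 0.157 without control replicate 2 and 0.299 without shtRF replicate 2 (lowest -0.384), and SNHG21 at 0.0664 without control replicate 2 and 0.156 without shtRF replicate 1 (lowest -0.237). Apart from such shifts, the cause was not tested. Same-numbered libraries did not deviate together (correlations 0.0592, 0.0178 and 0.0174), and with a replicate block 7 genes were higher and 11 lower, with a median of -0.169. Depth limited SNHG4, H19, SNHG25, SNHG9 and SNHG18, all under 1 CPM.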
